A study of Homo sapiens with 16 samples.

Results

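The liver X receptors and a set of their best-known targets were followed in OCI-AML3, an established acute myeloid leukaemia (AML) cell line, after short retinoid treatment. The set was given by gene symbol and holds 9 of the 62700 genes of the deposited table: the receptor genes NR1H2 and NR1H3, the lipid transporter genes ABCA1 and ABCG1, the ubiquitin ligase gene MYLIP, the apolipoprotein genes APOE and APOC1, and the lipase and transfer protein genes LPL and PLTP. RNA-seq of 16 libraries covered untreated cells (n = 4) and cells treated for 3 h (n = 3 each) with ATRA, with Am80 (AM80 in the labels), with ATRA plus GSK-LSD1 and MB3, or with Am80 plus GSK-LSD1 and MB3. Both retinoids were used at 0.1 µM, GSK-LSD1 at 0.1 µM and MB3 at 100 µM. ATRA, all-trans retinoic acid, activates all retinoic acid receptors, whereas Am80 (tamibarotene) prefers the receptor encoded by RARA. GSK-LSD1 inhibits the histone demethylase LSD1, and MB3 inhibits the histone acetyltransferase GCN5. Every library with inhibitors also had a retinoid and both inhibitors, so GSK-LSD1 and MB3 cannot be told apart here, and what they do on their own was not measured. All groups share the same single cell line.

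Liver X receptors (LXR) are nuclear receptors that bind oxysterols, oxidized derivatives of cholesterol, and act as heterodimers with the retinoid X receptor (RXR), the same partner that retinoic acid receptors use. When cholesterol accumulates, LXR raises genes that export it to lipoproteins and that limit its uptake, and in macrophages this programme is a main defence against lipid overload. The LXR-RXR dimer classically binds a direct repeat with a spacer of 4 bases (DR4), whereas retinoic acid receptors with RXR classically bind repeats with a spacer of 5 or 2 bases (DR5, DR2). Because ATRA and Am80 act on the other partner of RXR, the comparison asks how the LXR genes behave when retinoic acid receptors are engaged.

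The sequence upstream of the ABCA1 and MYLIP start sites is shown for a contrast between these genes. With a retinoid plus inhibitors, MYLIP was above untreated cells and ABCA1 below. Against the retinoid alone, adding the inhibitors lowered both genes. The 250 bases before each start site are given 5′ to 3′ on the strand of the gene, from RefSeq on GRCh38.p14, at chr9:104928156-104928405 (minus strand) for ABCA1 and chr6:16128836-16129085 (plus strand) for MYLIP. Capitals mark the units of a direct repeat.
ABCA1: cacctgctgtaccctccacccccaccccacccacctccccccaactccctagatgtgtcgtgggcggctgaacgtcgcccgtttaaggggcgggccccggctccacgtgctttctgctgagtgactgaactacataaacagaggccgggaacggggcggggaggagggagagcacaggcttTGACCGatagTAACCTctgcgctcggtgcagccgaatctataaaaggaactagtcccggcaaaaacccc
MYLIP: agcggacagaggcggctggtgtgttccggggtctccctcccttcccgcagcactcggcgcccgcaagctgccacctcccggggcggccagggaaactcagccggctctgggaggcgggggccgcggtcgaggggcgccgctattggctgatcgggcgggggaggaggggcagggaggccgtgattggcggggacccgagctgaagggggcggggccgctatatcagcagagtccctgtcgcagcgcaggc
The repeat at ABCA1 lies at positions -69 to -54 from the start site and reads AGGTTA, 4 bases, CGGTCA on the opposite strand. It was found by a search of both strands for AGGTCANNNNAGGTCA with at most 1 mismatch in each unit, an allowance that was set after the ABCA1 window had been seen. Windows of 300 bases around the start site were searched. Such a DR4 was present in 1.38% of the 35116 promoter windows held here, which do not cover every gene. The same search with spacers of 1, 2 and 5 bases matched 1.76%, 1.25% and 1.39% of windows. These shares are per window and per spacer. The set was searched with each spacer and in up to 4 windows per gene (NR1H3). A match somewhere in the set was therefore likelier than 1.38%. No other DR1, DR2, DR4 or DR5 match was found in the windows held for 7 of the 9 genes, which says only that these letters are not in these windows. No window was held here for ABCG1 or LPL, so their start sites were not searched. Whether RefSeq lists a window for them was not examined.

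The libraries held between 11963898 and 33789718 reads counted on genes, a 2.82-fold range. The cells carried the markers of a myeloid line: all 8 myeloid markers and all 3 homeobox genes typical of NPM1-mutant AML were expressed. A mean of 10 normalized counts was reached by 0 of 4 T cell, 0 of 4 erythroid and 0 of 3 adipocyte markers. However, 1 of 4 B cell and 1 of 4 hepatocyte markers reached that mean. Of 6 macrophage markers only CD163 and MARCO did, and MRC1, C1QA, C1QB and MSR1 stayed at 3 reads or fewer in each library. The summed macrophage level was 88.4 to 116.4 normalized counts in untreated libraries, 58.6 to 81.7 in libraries with a retinoid alone and 102.3 to 152.2 with the inhibitors added, and its part in the results was not tested. The sum followed CD163, at a mean of 74.4 untreated and 107.8 and 109.6 with the inhibitors, whereas MARCO was at 12.6 to 34.2 in untreated libraries, 14.2 to 23.0 with Am80 plus inhibitors and 14.6 to 18.5 with ATRA plus inhibitors. The labels name peripheral blood as the tissue. They name the replicates as repeats of each treatment and do not say that these were separate cultures, so p-values measure the spread between these libraries, which may be technical. Untreated replicate 4 and Am80 replicate 2 stood apart from their groups: the chi-square per degree of freedom of their reads against their replicates was 15.6 to 28.2, compared with 2.69 to 6.15 for all other replicate pairs. In bulk samples a fall of a transcript and a loss of the cells that carry it cannot be told apart.

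Of the 9 genes, 7 passed the filter of a mean of at least 10 normalized counts and were tested, and ABCG1 and APOE did not. Normalized counts are reads divided by a size factor of the library, and a gene was called where limma on log2(normalized count + 1) gave a Benjamini-Hochberg adjusted p under 0.05 over the 14643 genes tested. With ATRA, 3 of the 7 genes rose (NR1H2, NR1H3, MYLIP) and none fell, where 12.5% of all tested genes rose and 24.6% changed in either direction. With Am80, 4 rose (NR1H2, NR1H3, MYLIP, APOC1) and none fell, where 15.4% of tested genes rose and 28.8% changed. On adding the inhibitors, no member rose beside ATRA, where 24.9% of tested genes rose, or beside Am80, where 19.9% did, except that NR1H2 was called higher beside both with a trend on GC content removed. Beside ATRA, 5 fell against ATRA alone (NR1H3, ABCA1, MYLIP, APOC1, PLTP), where 24.4% of tested genes fell and 49.3% changed. Beside Am80, 4 fell against Am80 alone (ABCA1, MYLIP, APOC1, LPL), where 19.5% of tested genes fell and 39.5% changed. The median log2 change of the 7 genes was 0.35 with ATRA and 0.43 with Am80, beside -0.02 and -0.01 over all tested genes, and on adding the inhibitors it was -0.36 beside both retinoids, beside -0.02 and -0.01 over all genes. These comparisons share libraries: both retinoids are set against the same untreated libraries, and each retinoid group is also the reference of its combination. No called change of a member reached a factor of 2, that is, 1 on the log2 scale.

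**Figure D1:**
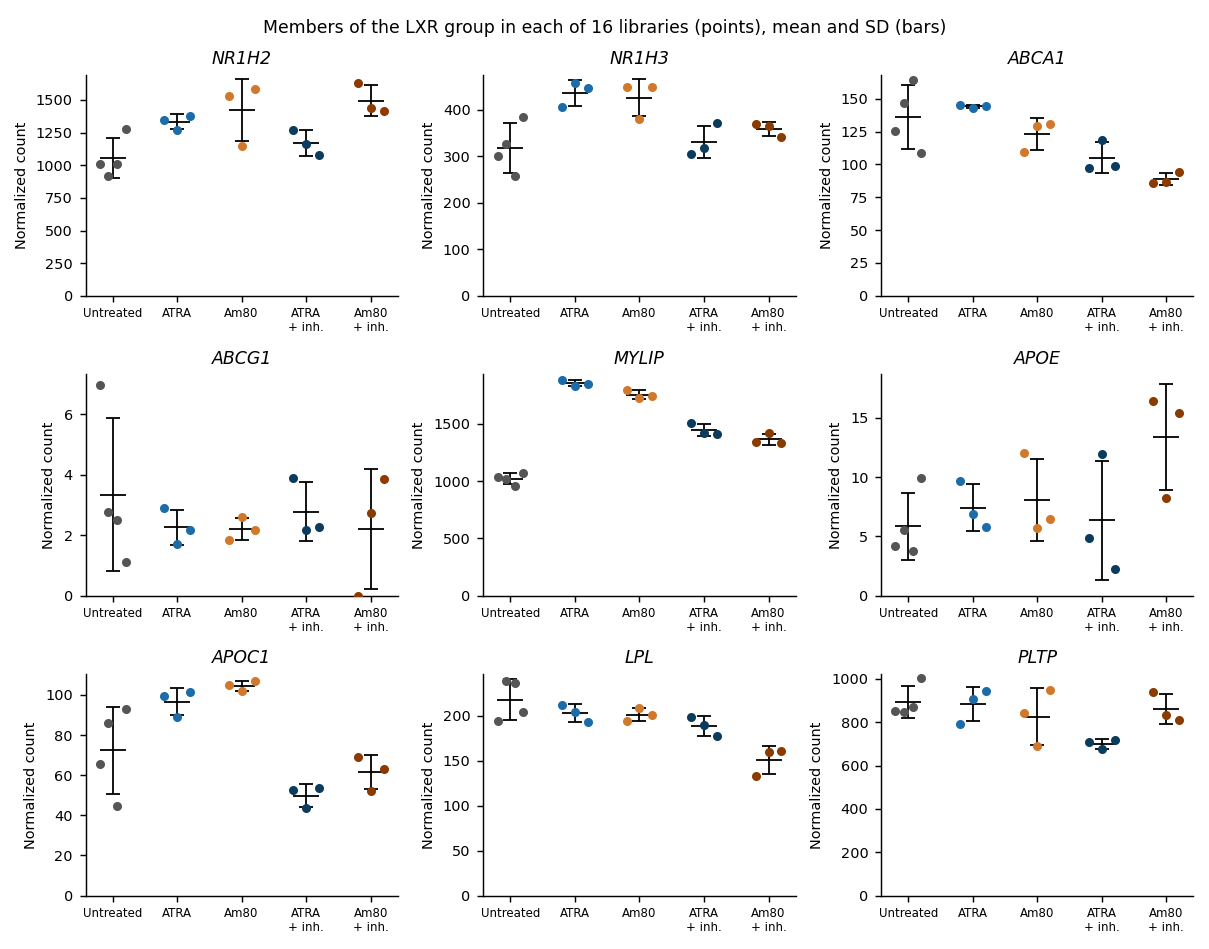
Normalized count (vertical axes, linear, from 0) of the 9 genes in each of the 16 libraries, with 4 untreated and 3 per treatment. Points are libraries, and bars are the mean and SD of a group, with inh. for GSK-LSD1 plus MB3. MYLIP runs from 960.3 to 1074.7 in untreated libraries and from 1331.2 to 1884.8 in all treated ones, and ABCG1 never passes 7.0.

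NR1H3 encodes LXRα, the isoform typical of liver and macrophages, and NR1H2 encodes LXRβ, which most cells express. NR1H3 lies at chr11:47248300-47269032 and NR1H2 at chr19:50329653-50382982, both on the plus strand of GRCh38. Per kilobase of merged exons, NR1H2 stood at 280.8 ± 41.5 (SD, n = 4) and NR1H3 at 70.0 ± 11.7 normalized counts in untreated cells, so the LXRβ transcript was the more abundant of the pair.

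Both receptor genes rose with either retinoid. NR1H3 was at 299.8, 327.0, 257.8 and 384.4 normalized counts in the untreated libraries. It was at 404.9, 456.3 and 445.8 with ATRA and at 448.4, 379.0 and 447.7 with Am80. All ATRA libraries lay above all untreated ones, and 1 Am80 library lay just below the highest untreated one. The log2 change was 0.47 ± 0.11 (SE) with ATRA (limma, adjusted p = 0.00316) and 0.43 ± 0.11 with Am80 (adjusted p = 0.00544). With the inhibitors, NR1H3 was at 304.6, 317.4 and 370.5 beside ATRA and at 369.4, 364.2 and 341.2 beside Am80, inside the untreated range in all 6 libraries. Against ATRA alone it fell by 0.40 ± 0.12 on the log2 scale (adjusted p = 0.00875). Against Am80 alone the change was -0.24 ± 0.12 and did not pass (adjusted p = 0.113). That fall was called without Am80 replicate 2 (limma, adjusted p = 0.0469) and under total read scaling (adjusted p = 0.0134). Neither combination passed against untreated cells, with log2 changes of 0.07 ± 0.11 (ATRA, adjusted p = 0.607) and 0.19 ± 0.11 (Am80, adjusted p = 0.158). The Am80 combination passed without untreated replicate 4 (0.29, adjusted p = 0.0182) and with a trend on GC content removed (0.32, adjusted p = 0.00482). The exons of NR1H3 share 189 bases (4.2%) with ACP2 on the opposite strand, and the strand setting of the counting is not known.

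NR1H2 was at 1009.6, 919.0, 1008.9 and 1278.5 normalized counts in the untreated libraries, the highest being the replicate 4 that stood apart. It was at 1347.8, 1269.8 and 1378.6 with ATRA and at 1529.0, 1150.0 and 1582.4 with Am80, the lowest Am80 library being the replicate 2 that stood apart. Both groups overlapped the untreated range through these libraries. The log2 change was 0.35 ± 0.11 with ATRA (adjusted p = 0.0222) and 0.43 ± 0.11 with Am80 (adjusted p = 0.00484). The ATRA call was lost when ATRA replicate 3 was left out (adjusted p = 0.0823) and held in 12 of the 16 fits that each left out 1 library. With the inhibitors NR1H2 was at 1269.2, 1165.1 and 1076.4 beside ATRA and at 1627.9, 1437.7 and 1412.3 beside Am80. Against untreated cells, the Am80 combination rose by 0.51 ± 0.11 (adjusted p = 0.000466) and the ATRA combination stood at 0.16 ± 0.11 (adjusted p = 0.215). The ATRA combination was called higher without untreated replicate 4 (0.255, adjusted p = 0.0236) and with the replicate number added to the model. Against the retinoid alone, the changes were -0.19 ± 0.12 beside ATRA (adjusted p = 0.184) and 0.08 ± 0.12 beside Am80 (adjusted p = 0.603). The direction beside ATRA depended on the processing: NR1H2 was called lower under quantile normalization (-0.29, adjusted p = 0.043) and under total read scaling (-0.34, adjusted p = 0.0148), and higher with a trend on GC content removed (0.21, adjusted p = 0.0231). Beside Am80 it was called only with the GC trend removed (0.20, adjusted p = 0.0271). The transcripts of NR1H2 and NR1H3 are rich in G and C (62.6% and 58.9%). With a trend on GC content removed from each library, both passed against untreated cells with ATRA plus inhibitors, at 0.58 (adjusted p = 4.4e-07) for NR1H2 and 0.34 (adjusted p = 0.00335) for NR1H3, and the fall of NR1H3 against ATRA became -0.12 (adjusted p = 0.336).

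ABCA1 and ABCG1 encode the transporters that hand cholesterol and phospholipid to apolipoprotein A-I and to high-density lipoprotein. They are the classical readouts of LXR activity. ABCA1 was not called with a retinoid and was lower with the inhibitors. ABCG1 was too low to test.

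ABCA1, at chr9:104781002-104928237 on the minus strand, was at 125.5, 146.9, 164.4 and 108.6 normalized counts in the untreated libraries. It was at 145.6, 143.2 and 144.1 with ATRA and at 109.5, 129.4 and 130.9 with Am80, all inside the untreated range. The log2 changes of 0.10 ± 0.13 with ATRA (adjusted p = 0.641) and -0.13 ± 0.13 with Am80 (adjusted p = 0.494) did not pass. Their 95% intervals reached from -0.17 to 0.37 with ATRA and from -0.40 to 0.14 with Am80. With the inhibitors ABCA1 was at 97.6, 118.5 and 98.9 beside ATRA and at 85.5, 86.6 and 94.0 beside Am80. All 3 libraries of each combination lay below all 3 libraries of its retinoid, and those of the Am80 combination lay below all 4 untreated libraries. Against the retinoid alone ABCA1 fell by 0.46 ± 0.14 on the log2 scale beside ATRA (adjusted p = 0.0099) and by 0.47 ± 0.14 beside Am80 (adjusted p = 0.0112). Against untreated cells it fell by 0.36 ± 0.13 with the ATRA combination (adjusted p = 0.0215) and by 0.60 ± 0.13 with the Am80 combination (adjusted p = 0.000598). The first of these was lost without untreated replicate 3 (adjusted p = 0.0841) and held in 12 of 16 such fits. Under quantile normalization the falls against ATRA and Am80 missed the threshold, with adjusted p of 0.0565 and 0.0697.

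ABCG1, at chr21:42199689-42297244, was hardly detected. Single libraries held 0 to 5 reads, and the untreated group summed to 11 reads, the ATRA group to 8, the Am80 group to 10, the ATRA combination to 8 and the Am80 combination to 5. Per 1000000 reads this was 0.186 in untreated cells (95% Poisson interval 0.0928 to 0.333, counting error only) and 0.108 with the Am80 combination (0.035 to 0.252). The intervals of the 5 groups overlap, so a difference was not detectable at this depth.

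MYLIP, also called IDOL, encodes a ubiquitin ligase that sends the LDL receptor to degradation and so limits cholesterol uptake. At chr6:16129125-16148248 on the plus strand, it gave the clearest response of the set: it rose with both retinoids and kept part of that rise with the inhibitors. Untreated libraries held 1033.3, 1017.8, 960.3 and 1074.7 normalized counts. ATRA libraries held 1884.8, 1829.6 and 1847.5, and Am80 libraries held 1798.2, 1723.7 and 1744.5. With the inhibitors the levels were 1508.4, 1423.7 and 1411.7 beside ATRA and 1345.1, 1421.2 and 1331.2 beside Am80. Every treated library lay above every untreated one, and every library with inhibitors lay below every library with a retinoid alone. MYLIP rose 1.82-fold with ATRA (log2 0.86 ± 0.06, adjusted p = 2.05e-10) and 1.72-fold with Am80 (log2 0.78 ± 0.06, adjusted p = 9.56e-10). Adding the inhibitors lowered it by 0.36 ± 0.06 on the log2 scale beside ATRA (adjusted p = 9.43e-05) and by 0.36 ± 0.06 beside Am80 (adjusted p = 0.000101). It remained above untreated cells at 1.42-fold with ATRA plus inhibitors (log2 0.50 ± 0.06, adjusted p = 3.14e-07) and 1.34-fold with Am80 plus inhibitors (log2 0.42 ± 0.06, adjusted p = 3.71e-06). These 6 calls were made in each of the 16 fits that left out 1 library and in each of 11 fits with another pseudocount, filter, scaling, model or tool.

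APOE and APOC1 are neighbours in the apolipoprotein cluster of chromosome 19 (APOE at chr19:44905754-44909393, APOC1 at chr19:44914247-44919349, both on the plus strand), and a shared set of enhancers controls them in macrophages. Apolipoprotein E carries cholesterol out of macrophages and into lipoproteins, and apolipoprotein C-I is a small lipoprotein protein that inhibits lipoprotein uptake and lipid transfer. APOE was at or near the limit of detection. Libraries held 2 to 15 reads, and the untreated group summed to 21 reads, the ATRA group to 26, the Am80 group to 33, the ATRA combination to 18 and the Am80 combination to 33. Per 1000000 reads the Am80 combination stood at 0.712 (95% Poisson interval 0.49 to 0.999) and untreated cells at 0.355 (0.22 to 0.542). Tested without the filter, this difference had a log2 change of 1.09 ± 0.48 and did not pass (limma, adjusted p = 0.126).

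APOC1 had 65.5, 85.9, 44.8 and 93.1 normalized counts in the untreated libraries, which spread widely. It had 99.3, 88.8 and 101.6 with ATRA and 104.9, 102.0 and 107.0 with Am80. The Am80 libraries lay above all untreated ones, and the lowest ATRA library lay inside the untreated range. The log2 change of 0.58 ± 0.19 with Am80 passed (adjusted p = 0.0243), and that of 0.46 ± 0.19 with ATRA did not (adjusted p = 0.0789). The Am80 call was lost without untreated replicate 3 (adjusted p = 0.0845) and held in 11 of 16 fits. Without untreated replicate 4 and Am80 replicate 2 the ATRA rise passed at 0.60 (adjusted p = 0.0111). With the inhibitors APOC1 was at 52.7, 43.5 and 53.4 beside ATRA and at 69.1, 52.2 and 63.1 beside Am80. It fell by 0.94 ± 0.20 against ATRA alone (adjusted p = 0.000663), to 0.52 of that level, and by 0.77 ± 0.20 against Am80 alone (adjusted p = 0.00465), to 0.588 of that level. No library of a combination reached the range of its retinoid. Against untreated cells the fall with the ATRA combination was 0.48 ± 0.19 (adjusted p = 0.0328), and it was lost in 3 of the 16 fits that left out 1 library, with an adjusted p of 0.136 without the second ATRA combination library. The Am80 combination stood at -0.19 ± 0.19 (adjusted p = 0.42). APOC1 shares 532 exon bases (43.2%) with AC011481.3 on the same strand and has a pseudogene copy, APOC1P1, in the same cluster, so reads of APOC1 are uncertain by the amount that counting assigned to these.

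LPL encodes lipoprotein lipase, which releases fatty acids from triglyceride-rich lipoproteins, and PLTP, at chr20:45898621-45912155 on the minus strand, encodes the phospholipid transfer protein that remodels high-density lipoprotein. Neither passed with a retinoid alone. With the inhibitors LPL was called lower only beside Am80 and PLTP only beside ATRA in the main fit, but some other fits differed. The difference between the 2 settings did not pass a test for either gene.

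LPL was at 193.8, 238.3, 236.7 and 203.9 normalized counts in the untreated libraries, 212.1, 204.4 and 193.0 with ATRA, and 194.0, 209.2 and 201.1 with Am80. It was at 199.2, 190.2 and 177.3 with the ATRA combination and at 132.6, 159.4 and 160.9 with the Am80 combination. The 3 Am80 combination libraries lay below all 13 others. LPL fell by 0.42 ± 0.11 on the log2 scale against Am80 (adjusted p = 0.0043) and by 0.53 ± 0.10 against untreated cells (adjusted p = 0.000167). The ATRA combination stood at -0.11 ± 0.11 against ATRA (adjusted p = 0.44) and -0.20 ± 0.10 against untreated cells (adjusted p = 0.0908). Against untreated cells it was called lower without untreated replicate 1 (adjusted p = 0.0443), under total read scaling and with the GC trend removed. The interaction, the difference of the inhibitor effect between Am80 and ATRA, was -0.31 ± 0.15 with a raw p of 0.0542 and an adjusted p of 0.343 (limma).

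PLTP was at 852.1, 846.9, 868.1 and 1004.9 normalized counts in the untreated libraries, the highest again being replicate 4. It was at 793.4, 909.2 and 943.5 with ATRA, and at 842.9, 688.6 and 947.4 with Am80, the lowest being replicate 2. The ATRA combination held 707.8, 676.0 and 719.5, below all untreated and ATRA libraries, and the Am80 combination held 938.4, 831.6 and 809.8. PLTP fell by 0.33 ± 0.10 on the log2 scale against ATRA (adjusted p = 0.0121) and by 0.35 ± 0.10 against untreated cells (adjusted p = 0.00403). Without ATRA replicate 3 the fall against ATRA missed the threshold (adjusted p = 0.0605). The Am80 combination stood at 0.07 ± 0.10 against Am80 (adjusted p = 0.638) and -0.05 ± 0.10 against untreated cells (adjusted p = 0.66). Against untreated cells it was called lower under total read scaling (adjusted p = 0.033). The interaction was 0.39 ± 0.14, with a raw p of 0.0131 and an adjusted p of 0.235. PLTP transcripts hold 59.8% G and C, and with a trend on GC content removed both falls ended, at -0.02 against ATRA (adjusted p = 0.815) and -0.04 against untreated cells (adjusted p = 0.585). The exons of PLTP share 200 bases (7.9%) with CTSA on the opposite strand.

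**Figure D2:**
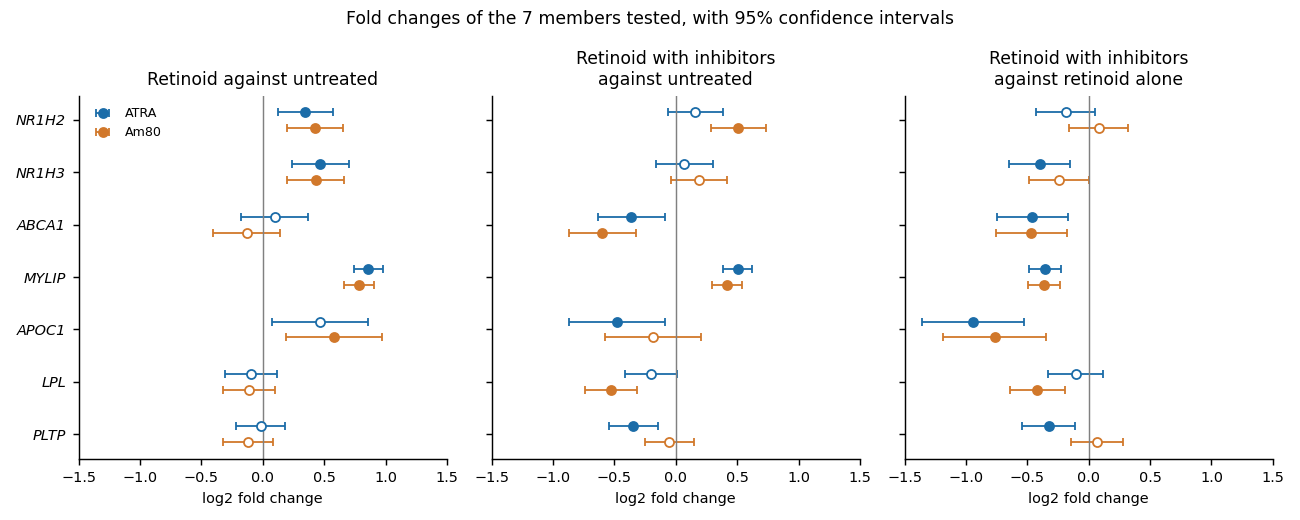
Log2 fold change (horizontal axes) of the 7 tested genes in 6 comparisons, with 95% confidence intervals from limma, n = 4 untreated and 3 libraries per treatment. Blue marks ATRA and orange Am80, and filled points passed at an adjusted p under 0.05. MYLIP lies at 0.86 and 0.78 in the left panel, and ABCA1 lies left of 0 at -0.46 and -0.47 in the right panel.

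Against untreated cells, the combinations left the 7 genes split. With ATRA plus inhibitors MYLIP rose and ABCA1, APOC1 and PLTP fell, where 30.2% of tested genes rose, 30.0% fell and 60.2% changed. With Am80 plus inhibitors NR1H2 and MYLIP rose and ABCA1 and LPL fell, where 28.0% rose, 26.6% fell and 54.7% changed. The median of the 7 genes was -0.20 and -0.05, against -0.003 for all genes in both comparisons. The share of members called was thus 4 of 7 in either comparison, near the share of all genes.

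ATRA and Am80 were compared directly at the same dose and time, once alone and once with the inhibitors, and p-values were adjusted over all 14643 genes. Between Am80 and ATRA alone 0 of the 7 genes passed by limma, and none had an unadjusted p under 0.05, where 0.239% of all tested genes passed, 0.184% higher and 0.0546% lower with Am80. edgeR and DESeq2 also called 0 of the 7. The log2 differences ran from -0.23 for ABCA1 to 0.12 for APOC1, and their 95% intervals together reached from -0.52 to 0.54. MYLIP was 0.08 ± 0.06 lower on the log2 scale with Am80 (difference -0.08), although the Am80 and ATRA libraries did not overlap (adjusted p = 0.622). Between the combinations 0 of the 7 passed by limma or edgeR. DESeq2 also called none, without an adjusted p for APOC1, and limma called 0% of all genes. Of the 7, 3 had an unadjusted p under 0.05: NR1H2 was 0.35 ± 0.12 higher with the Am80 combination (adjusted p = 0.166), PLTP 0.29 ± 0.10 higher (adjusted p = 0.179) and LPL 0.33 ± 0.11 lower (difference -0.33, adjusted p = 0.169). All 3 passed when untreated replicate 4 and Am80 replicate 2, which belong to neither group but enter the common spread, were left out, with adjusted p of 0.000866, 0.00595 and 0.0361, but 2304 genes in all passed in that fit, where none had before. The 95% intervals of the 7 differences reached from -0.55 to 0.71, so differences below a factor of 2 were not bounded more closely than this. In the interaction 0 of 7 passed by limma or edgeR, and DESeq2 called none, without an adjusted p for ABCA1 and APOC1. By limma 0% of all genes passed, and 1 of the 7 (PLTP) had an unadjusted p under 0.05.

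Ordered by their mean over the 5 conditions, the genes fell into different sequences. MYLIP ran from ATRA (1854.0) over Am80 (1755.5), ATRA combination (1447.9) and Am80 combination (1365.8) to untreated (1021.5), and of these neighbours only the 2 combinations overlapped. ABCA1 ran from ATRA (144.3) over untreated (136.3), Am80 (123.3) and ATRA combination (105.0) to Am80 combination (88.7), with overlap at each step but the last. For NR1H3 the retinoids alone (435.7 and 425.0) stood apart from the next group, the Am80 combination (358.3), and the remaining steps overlapped. For APOC1 the order was Am80 (104.6), ATRA (96.6), untreated (72.3), Am80 combination (61.5) and ATRA combination (49.9), and only the first 2 did not overlap. For LPL the Am80 combination (151.0) alone stood apart from its neighbour, for NR1H2 only ATRA (1332.0) and the ATRA combination (1170.2) did, and for PLTP, ABCG1 and APOE no neighbours did.

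Across the 16 libraries the genes did not move as a block. As a description over libraries that share their conditions and size factors, Pearson's r on log2 values was 0.78 between NR1H3 and MYLIP, 0.78 between NR1H3 and APOC1 and 0.84 between ABCA1 and LPL, while it was 0.003 between NR1H3 and ABCA1 and -0.47 between NR1H2 and ABCA1. Among all tested genes, those whose pattern was most like MYLIP were NPR3 (r = 0.985) and PTPRN2-AS1 (r = 0.982). For ABCA1 they were IL11RA (r = 0.948) and PIGM (r = 0.926), and for LPL ORC2 (r = 0.912) and LINC01410 (r = 0.909). For NR1H2 they were MCRIP2 (r = 0.959) and RELT (r = 0.956), and for NR1H3 MTMR14 (r = 0.920) and TNFRSF1B (r = 0.909). For APOC1 they were STAR (r = 0.936) and ZNF740 (r = 0.923), and for PLTP ITGB2 (r = 0.945) and AKT2 (r = 0.943). None of the 7 had another member among these.

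The remaining LXR programme was examined in a list of 30 further target genes, of which 21 were tested. With ATRA 7 rose and 1 fell, and with Am80 7 rose and 3 fell, so 8 and 10 of 21 changed, where 24.6% and 28.8% of all genes did. The list medians were 0.12 and 0.03. With Am80 and only the compared groups in the fit, 6 of the 21 passed. The rises were led by 2 genes far ahead of any member. MERTK, a receptor by which macrophages take up dying cells, went from 62.0 to 80.9 normalized counts in untreated libraries to 363.5 to 390.8 with ATRA and 337.0 to 375.9 with Am80, that is, 5.07-fold (log2 2.34 ± 0.09, adjusted p = 1.95e-14) and 4.76-fold (2.25 ± 0.09, adjusted p = 3.89e-14). MLXIPL, which encodes the carbohydrate-response factor ChREBP, rose 5.03-fold (2.33 ± 0.09, adjusted p = 1.07e-14) and 3.80-fold (1.93 ± 0.09, adjusted p = 2.85e-13). ELOVL5, a fatty acid elongase, rose 1.70-fold and 1.81-fold (adjusted p = 1.33e-08 and 2.05e-09). SREBF1, the gene of the lipogenic factor SREBP-1, rose 1.49-fold with ATRA (adjusted p = 0.000291). With Am80 SREBF1 held 2135.2, 1464.8 and 2204.4 normalized counts, beside 1327.2 to 1483.4 in untreated libraries. EEPD1, a nuclease-family gene, fell by 0.56 ± 0.12 on the log2 scale with Am80 (adjusted p = 0.00108). Between Am80 and ATRA 0 of the 21 passed by limma, and other fits called 0 to 2. A gene named here for 1 retinoid is thus not shown to differ between them. The 9 genes below the filter included the sterol transporters ABCG5 and ABCG8 and the bile acid enzyme gene CYP7A1, with at most 4 reads in a library.

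On adding the inhibitors to ATRA, 3 of the 21 rose and 6 fell, and beside Am80 3 rose and 3 fell, where 49.3% and 39.5% of all genes changed, with list medians of -0.04 and 0.11. The 6 calls beside Am80 became 3 without the first Am80 combination library and 10 with the GC trend removed. MERTK did not pass in either (log2 changes of -0.01 ± 0.10 and 0.18 ± 0.10, adjusted p = 0.951 and 0.151), and it stood at 362.6 to 383.7 normalized counts with the ATRA combination and 384.9 to 407.8 with the Am80 combination. ELOVL5 rose further, 1.61-fold beside ATRA and 1.52-fold beside Am80 (adjusted p = 2.25e-07 and 1.22e-06), and CETP, the cholesteryl ester transfer protein gene, rose 2.13-fold beside ATRA (adjusted p = 0.0188) from 5.8 to 17.3 normalized counts to 21.7 to 22.7. Its rise beside Am80 (adjusted p = 0.0445) held in 7 of 16 fits that left out 1 library. ABCC1, an exporter of glutathione conjugates, fell by 0.68 ± 0.10 beside ATRA (adjusted p = 1.48e-05), ABCA7, a close relative of ABCA1, by 0.56 ± 0.09 (adjusted p = 6.85e-05, not called with the GC trend removed), and SMPDL3A, a phosphodiesterase gene, by 0.94 ± 0.25 beside Am80 (adjusted p = 0.0058). VEGFA rose 1.44-fold beside Am80 (adjusted p = 1.02e-05). The difference of the inhibitor effect between Am80 and ATRA passed for 0 of the 21 genes (limma). Naming a gene beside 1 retinoid thus shows no difference between them.

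**Figure D3:**
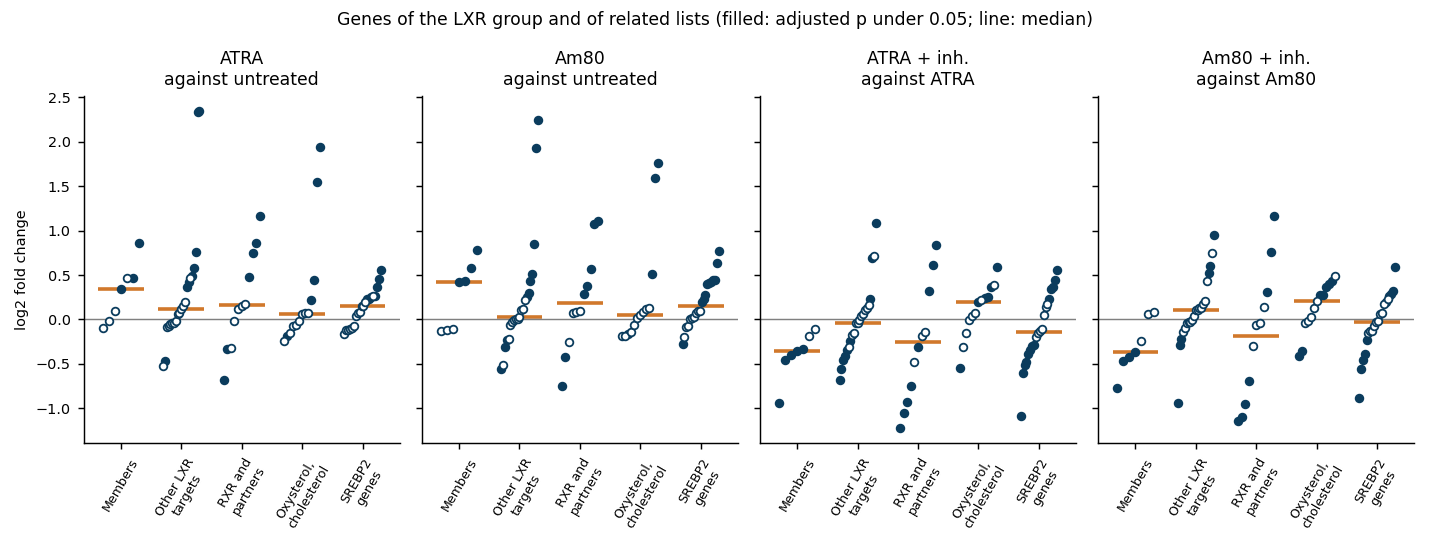
Log2 fold change (vertical axis) of each tested gene of the 9-gene set and of 4 related lists in 4 comparisons, with filled points for an adjusted p under 0.05 and an orange line at the list median. RARB, at 4.43 with ATRA and 4.68 with Am80, is not drawn in any panel but enters its list's median. The member median is 0.35 and 0.43 in the first 2 panels and -0.36 in the other 2.

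The other nuclear receptors that pair with RXR, and the RXR genes themselves, formed a list of 15. Of these, 12 were tested: 5 rose and 2 fell with ATRA, and 6 rose and 2 fell with Am80, where 24.6% and 28.8% of all genes changed. RARB, a classical retinoic acid target, rose 21.6-fold with ATRA and 25.7-fold with Am80 (adjusted p = 1.67e-13 and 6.42e-14). PPARD, the gene of the fatty acid sensor PPARδ, rose 2.24-fold and 2.16-fold (adjusted p = 8.37e-11 and 1.7e-10), and RARG 1.81-fold and 2.11-fold. PPARA rose by 0.75 ± 0.10 and 0.57 ± 0.10 on the log2 scale (adjusted p = 3.94e-06 and 0.000109). THRA, a thyroid hormone receptor gene, fell by 0.68 ± 0.09 with ATRA and by 0.75 ± 0.09 with Am80 (adjusted p = 2.52e-06 and 6.22e-07). RXRA, the main RXR gene here and named as the partner of LXR rather than by size, went from 7793.3 to 8361.6 normalized counts in untreated libraries to 6298.4 to 6568.1 with ATRA and 5171.6 to 6596.7 with Am80, without overlap. It fell by 0.33 ± 0.07 on the log2 scale with ATRA (adjusted p = 0.00149) and by 0.42 ± 0.07 with Am80 (adjusted p = 0.000102), so the LXR transcripts rose while their partner's fell. RXRB stood at 239.9 to 304.7 in untreated libraries and was not called with a retinoid, and RXRG was below the filter. On adding the inhibitors, 3 of 12 rose and 5 fell beside ATRA, and 3 rose and 4 fell beside Am80, where 49.3% and 39.5% of all genes changed. RARA rose 1.79-fold and 2.24-fold (adjusted p = 1.18e-06 and 1.6e-08), while NR4A2 fell by 1.22 and 1.14, VDR by 1.05 and 0.95 and RARG by 0.92 and 1.10 on the log2 scale.

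The supply and storage of sterols was followed in 19 genes, of which 13 were tested. Of the enzymes that make oxysterol ligands of LXR, CH25H was at 0 reads, CYP27A1 at most at 3 and CYP46A1 at most at 24 in a library. CYP46A1 had a mean of 3.18 normalized counts untreated, 7.82 with ATRA, 10.4 with Am80, and 4.18 and 4.07 with the inhibitors, below the filter and not tested. With ATRA 4 rose and 1 fell, and with Am80 3 rose and 1 fell, where 24.6% and 28.8% of all genes changed. With ATRA 3 in all passed when only the compared groups were fitted. LCAT, which esterifies cholesterol on lipoproteins, rose 3.83-fold with ATRA and 3.38-fold with Am80 (adjusted p = 4.48e-12 and 2.44e-11), and SOAT1, which esterifies cholesterol for storage inside cells, rose 2.92-fold and 3.01-fold (adjusted p = 4.73e-14 and 2.78e-14). STARD4, a sterol carrier gene, rose 1.37-fold and 1.42-fold (adjusted p = 0.0014 and 0.000396). On adding the inhibitors 5 rose and 1 fell beside ATRA, and 5 rose and 2 fell beside Am80, where 49.3% and 39.5% of all genes changed. Under quantile normalization the 6 calls beside ATRA became 2. SOAT1 rose further, by 0.59 ± 0.07 and 0.37 ± 0.07 on the log2 scale (adjusted p = 7.96e-07 and 0.000187), and LCAT fell by 0.55 ± 0.11 and 0.41 ± 0.11 on the log2 scale (adjusted p = 0.000409 and 0.00644), the former not called with the GC trend removed. In untreated libraries SOAT1 held 682.5 to 768.5 normalized counts and with ATRA plus inhibitors 3148.5 to 3231.4.

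**Figure D4:**
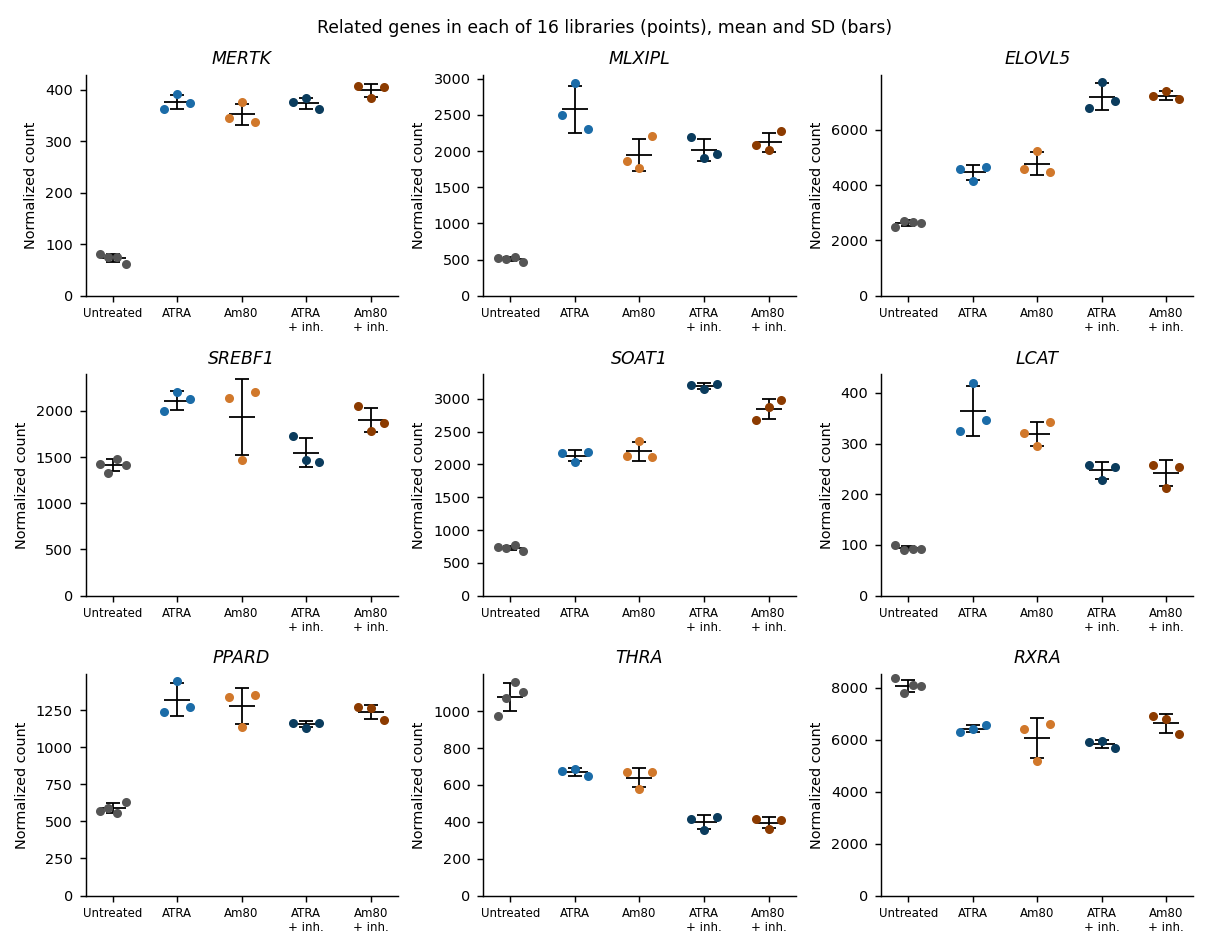
Normalized count (vertical axes, linear, from 0) of 9 related genes in each of the 16 libraries, with the mean and SD of each group as bars (n = 4 untreated and 3 per treatment, inh. for GSK-LSD1 plus MB3). MERTK lies between 337.0 and 407.8 in all treated libraries and at 80.9 or below in untreated ones, SOAT1 is highest with ATRA plus inhibitors, and RXRA is highest in untreated libraries.

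The sterol-responsive genes governed by SREBP2, which move against LXR targets when cell cholesterol changes, were taken as a last list of 21, of which 20 were tested. With ATRA 7 rose and none fell, and with Am80 10 rose and 1 fell, with list medians of 0.15 in both, where 24.6% and 28.8% of all genes changed. Without ATRA replicate 3, 4 of the 20 passed with ATRA. MSMO1, a sterol oxidase gene, rose 1.47-fold and 1.71-fold (adjusted p = 0.00022 and 3.84e-06). On adding the inhibitors 5 rose and 8 fell beside ATRA, and 5 rose and 5 fell beside Am80, where 49.3% and 39.5% of all genes changed. Beside Am80 16 of the 20 passed without untreated replicate 4 and Am80 replicate 2. INSIG1, which restrains SREBP processing, rose 1.47-fold and 1.51-fold (adjusted p = 8.7e-06 and 4.67e-06), and MVK, mevalonate kinase, fell by 1.09 ± 0.15 and 0.89 ± 0.15 on the log2 scale (adjusted p = 9.98e-06 and 0.000125). All 5 genes of a list of retinoid response genes rose in all 4 treated groups, with TGM2 129-fold higher with ATRA and 115-fold higher with Am80. Of all tested genes 12.5% rose with ATRA, 15.4% with Am80, 30.2% with the ATRA combination and 28.0% with the Am80 combination. This list was chosen with earlier results of these data known, so it is no independent check of the treatment. The inhibitors lowered 4 of these 5 genes beside either retinoid, where 24.4% of tested genes fell beside ATRA and 19.5% beside Am80. TGM2 fell by 0.79 ± 0.09 and 0.60 ± 0.09 on the log2 scale.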

How the data were processed

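RNA of OCI-AML3 cells was sequenced in 16 libraries. Per the labels and the paper's methods, the authors trimmed reads with cutadapt, aligned them with STAR, counted them per gene with featureCounts and normalized them with DESeq2. Tool versions, genome build, annotation and strand setting are not given in the sources used here, and the RNA and library kits named by the labels and the methods differ. The deposited signal values are counts per gene divided by the library's DESeq2 size factor. Multiplied back, 100% of values were whole reads within 0.01. Positions are from GENCODE 29 (GRCh38), and promoter windows are from RefSeq (GRCh38.p14).

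The 14643 genes whose mean over all libraries reached 10 were tested with limma 3.58.1 in R 4.3.3 on log2(normalized count + 1), with 1 coefficient per group, a mean-variance trend and Benjamini-Hochberg adjustment within each of 9 comparisons at 0.05. Fold changes are on that scale. edgeR 4.0.16 and DESeq2 1.42.0 on the recovered reads, other filters, pseudocounts and scalings, and fits without single libraries were alternatives. Data were simulated with 200 of 14643 genes changed by 1 on the log2 scale in all 4 treated groups. For ATRA against untreated libraries, limma recovered 99.5% of these and called 13 others. The changed genes were drawn from the better expressed ones, and no GC trend or outlying library was simulated. Every called member change was smaller than 1, so the 99.5% does not give the power for these.

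All 9 genes are named, and of each other list up to 4 called genes by size of change in a comparison, plus the 2 genes most correlated with each tested member. RXRA, RXRB, CYP27A1, CYP46A1, CH25H and genes below the filter were named outside this rule, after their values were seen, as were repeats of a gene in a further comparison. The members and lists were chosen with earlier results of these data known. Intervals on reads cover counting error only.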

Additional observations from a re-analysis of the deposited data

Results flagged for a closer look

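PLTP in untreated replicate 4 lay far from its group: it held 1004.9 normalized counts against 846.9 to 868.1 in the other 3 untreated libraries, and the gap was 0.866 of the group's range, above Dixon's critical value for 4 values. Chance flags about 1 in 20 groups. The same library stood apart from its group in the chi-square of reads over all genes. Its mean distance to its group over the 1000 most variable genes was 25.66. The other untreated libraries had 22.49 to 25.05, so that measure hardly set it apart. Without untreated replicate 4 the fall of PLTP with ATRA plus inhibitors against untreated cells remained called (limma, 16 of 16 fits that left out 1 library). PLTP with Am80 plus inhibitors then stood at 0.0041 on the log2 scale (adjusted p = 0.973).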

How the results depend on the processing

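edgeR and DESeq2 called the same members as limma in the 6 comparisons against untreated cells or against the retinoid alone. With a minimum log2 change of 1 added, 0 members were called in each of these 6. With ATRA plus inhibitors against untreated cells, the 4 calls became 2 (MYLIP, PLTP) under quantile normalization and with only the compared groups fitted, and 2 to 5 with single libraries left out, 2 without untreated replicate 2. Between the combinations the count of 0 became 2 with only the compared groups, 1 under the replicate block, 3 without untreated replicate 4 and Am80 replicate 2, an alternative added after seeing the data, and 0 to 1 with single libraries left out, 1 without untreated replicate 4.

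Some differences changed sign; of these only NR1H2 on adding inhibitors to ATRA, with the GC trend removed, was called after the change. Without those 2 libraries ABCA1 (-0.0044) and PLTP (0.0398) did so with ATRA, PLTP with Am80 (0.0626) and with Am80 plus inhibitors against untreated (0.00413), and NR1H2 (-0.0624) and PLTP (-0.0585) on adding inhibitors to Am80. Under the replicate block the values of ABCA1 (-0.0044) and PLTP (0.0398) with ATRA and PLTP with the Am80 combination (0.00413) were the same, since untreated replicate 4 has no partner. Total read scaling reversed NR1H3 with ATRA plus inhibitors (-0.0776) and, on adding inhibitors to Am80, NR1H2 (-0.0413) and PLTP (-0.0573). Quantile normalization reversed LPL on adding inhibitors to ATRA (0.0161) and NR1H2 on adding them to Am80 (-0.0256). With the GC trend removed, also added after seeing the data, PLTP reversed with Am80 plus inhibitors (0.0995) and NR1H2 on adding inhibitors to ATRA (0.211, adjusted p = 0.0231). With single libraries left out, values ran from -0.0044 to 0.194 for ABCA1 with ATRA, -0.0686 to 0.0563 for PLTP with ATRA, -0.225 to 0.00471 for PLTP with Am80, -0.0244 to 0.167 for NR1H3 with ATRA plus inhibitors, -0.118 to 0.00413 for PLTP with Am80 plus inhibitors, and, on adding inhibitors to Am80, -0.0624 to 0.168 for NR1H2 and -0.0585 to 0.171 for PLTP. The causes were not tested.

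The replicate numbers did not pair the samples: correlations of same-numbered libraries ran from -0.112 to 0.187 over 30 pairs, with 4 over 0.1. Total read scaling moved the median of all genes by -0.15 and -0.19 for ATRA and Am80 plus inhibitors against untreated and by -0.16 and -0.13 on adding them, and the share of calls that were higher from 50.1%, 51.3%, 50.5% and 50.5% to 35.0%, 30.4%, 29.8% and 29.3%, and with Am80 from 53.5% to 39.0%. Over all genes, the 35 calls between Am80 and ATRA became 88 by edgeR, 342 by DESeq2, 402 under the block and 0 without a filter, and the 0 between combinations became 109 by DESeq2, 690 under the block, 1975 with only those groups and 2304 without the 2 libraries. ABCG1 and APOE, at 0 to 15 reads in a library, were below the filter.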
